A study of Saccharomyces cerevisiae with 36 samples.

Results

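The 33 genes that encode the proteasome of *Saccharomyces cerevisiae* were followed through a heat shock given with or without an earlier one. They were chosen by name and not by their values, though with earlier results of these data known. The set holds the 14 subunits of the core particle (*SCL1* and the *PRE* and *PUP* genes). It also holds 10 subunits of the base (the *RPT* ATPase genes with *RPN1*, *RPN2*, *RPN10* and *RPN13*) and 9 subunits of the lid (the other *RPN* genes and *SEM1*). All 33 were among the 6403 genes of the count table, and all 33 were among the 6038 genes that passed the filter on low counts. RNA-seq was done on 36 samples of total RNA in 12 groups of 3 replicates. The *mip6Δ* strain (mip6::KANMX4, which lacks the RNA-binding protein Mip6) was set against WT, and both are BY4741 haploids that carry the his3Δ1, leu2Δ0, met15Δ0 and ura3Δ0 deletions. Cultures in rich medium (YPD) were divided between a memory flask, which received a heat shock of 20 min and a recovery of 60 min before its last heat shock, and a no-memory flask, which received the last heat shock alone. Heat shocks were started by adding medium at 51 °C to the cultures, and the temperature of the mixture was lower than that. The last heat shock was sampled at 0, 15 and 20 min. The 0 min samples of the memory flask were therefore cells that had been heated and had recovered. The replicates are described as biological. That a memory and a no-memory sample of the same strain and number came from 1 divided culture is not stated, and the tests below do not pair them unless a block is named.

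The proteasome is the protease that degrades proteins tagged with ubiquitin. Its core particle is a barrel of alpha and beta rings in which the beta1, beta2 and beta5 subunits cut the substrate. The base sits on the barrel and holds the ATPase ring that unfolds substrates and the receptors that bind ubiquitin, and the lid removes the ubiquitin chain. In yeast most proteasome genes carry in their promoters a short element called PACE, to which the transcription activator Rpn4 binds. Rpn4 is itself a very short-lived substrate of the proteasome, and proteins that misfold in heat are among the substrates of this system.

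*MIP6* (YHR015W) had 0 reads in each of the 18 *mip6Δ* libraries, against 134 to 626 reads in the 18 WT libraries. *HIS3*, of which his3Δ1 removes only a part, had 722 to 2994 reads in *mip6Δ* libraries and 939 to 2470 in WT libraries. The total per library ranged from 28270651 to 42233578 reads, and a proteasome gene had between 775 and 35203 reads in a library. All 6 genes of a heat shock check list rose in each heat comparison. The largest of them at 20 min without memory was *HSP26*, a small heat shock protein gene (log2 fold change 8.53), and the smallest was *HSP42*, another of that class (1.16). One library, *mip6Δ* memory 0 min replicate 2, carries a time tag of 20 min that goes against its title. Its deviations correlated with those of the other *mip6Δ* memory 0 min libraries at a mean r of 0.963 and with those of the 20 min libraries at -0.188 across genes, and it was kept at 0 min. Values below are counts-per-million of the library's reads (CPM) after scaling by TMM, a method that sets the bulk of genes equal between libraries. Scaling by total reads instead moved the median of all genes by 0.17, 0.24 and 0.20 on the log2 scale for memory against no memory at 0, 15 and 20 min, so the differences between these conditions are relative to the bulk of genes. CPM are shares of a pool of cells, in which fewer cells that express a gene and less of its RNA per cell cannot be told apart.

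The promoters are shown because most of the genes share 1 element in them. The window from 250 bases before to 50 bases after the first base of each gene was read from the RefSeq R64 genome, the assembly also named sacCer3, and 27 of the 33 windows held PACE (GGTGGCAAA on either strand) once. Below, PACE stands in capitals with 10 bases on each side, written on the strand of the gene, for the genes with an element among those followed by sample. They are *PRE3* (chrX:435035-435063, + strand), *PRE2* (chrXVI:732184-732212, +), *PRE4* (chrVI:249959-249987, −), *PRE7* (chrII:141150-141178, +), *PUP2* (chrVII:999226-999254, −), *RPT3* (chrIV:1261495-1261523, +), *RPT4* (chrXV:813802-813830, −), *RPN3* (chrV:196843-196871, +), *RPN7* (chrXVI:742290-742318, +) and *RPN11* (chrVI:153259-153287, +).
PRE3: aacggaatccGGTGGCAAAaaagggaaaa
PRE2: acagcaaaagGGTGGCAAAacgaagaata
PRE4: tggtttagaaTTTGCCACCttaaatacgt
PRE7: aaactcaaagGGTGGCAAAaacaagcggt
PUP2: aaccaagaccGGTGGCAAAagagtaacct
RPT3: ctgaaagtaaGGTGGCAAAatagtaaatc
RPT4: aatagtggaaTTTGCCACCgaagggaaag
RPN3: acgaaaaacaTTTGCCACCcaagaaagag
RPN7: ataagttaagTTTGCCACCcattgaggat
RPN11: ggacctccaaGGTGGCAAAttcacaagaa

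PACE was found in the windows of 12 of the 14 core genes, 8 of the 10 base genes and 7 of the 9 lid genes, against 72 of the 6020 promoter windows of all nuclear protein genes (1.20%). The genes without it in this window were *PUP1*, *PRE5*, *RPN10*, *RPN13*, *RPN8* and *SEM1*. The form shorter by its last base (GGTGGCAA, which added no member) was in 1.68% of all windows. In the 27 windows PACE lay between 76 and 175 bases before the gene, with a median of 112, and it read along the gene in 19 and on the other strand in 8. The other motifs were rarer among these promoters. The heat shock element GAANNTTC was in 2 member windows (*PRE6* and *PUP2*) and in 11.8% of all windows, and the stress response element AGGGG was in 8 and in 21.6% of all. The Pdr1/Pdr3 element TCCGCGGA was in 1, that of *RPN11*, and in 0.216% of all. These are matches of letters on both strands, and binding was not measured.

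**Figure D1:**
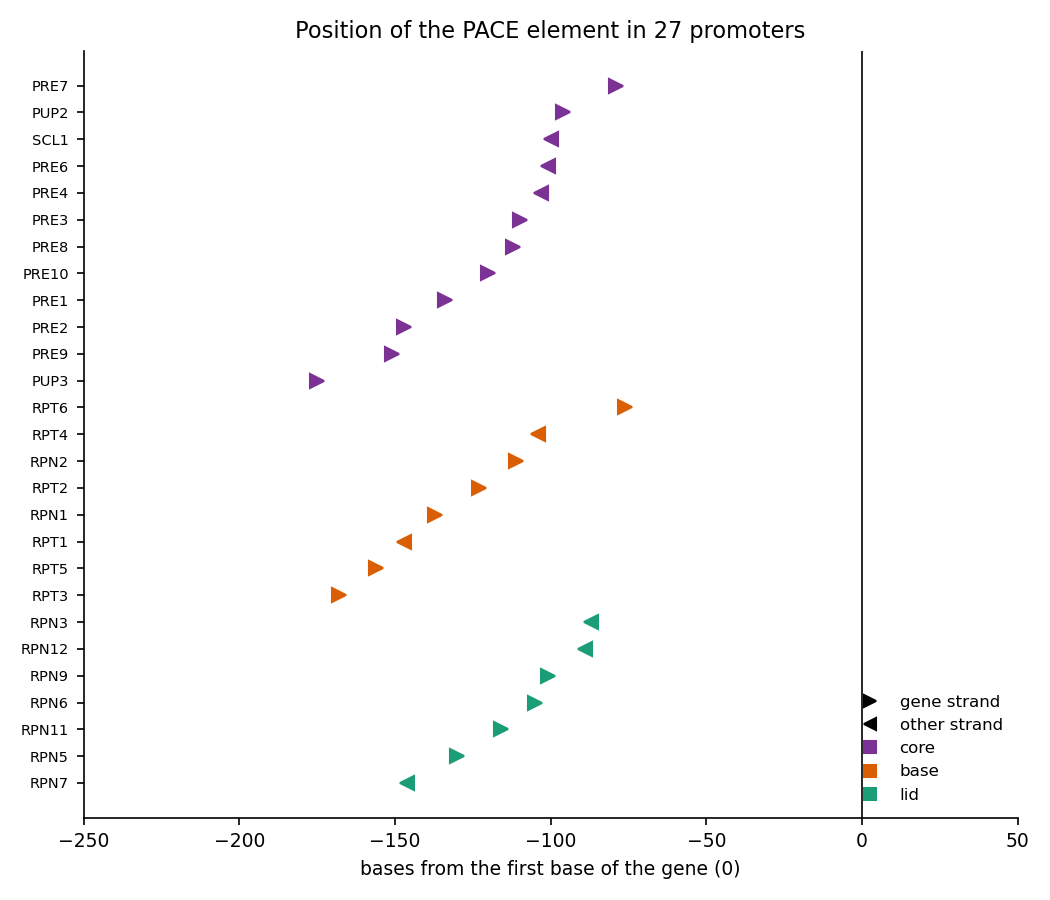
Position of the PACE element in the promoter windows of the 27 genes that hold it, with distance in bases from the first base of the gene (0) on the x axis and 1 row per gene, coloured by sub-complex. Triangles point along the gene or to the other strand, and every element lies between 76 and 175 bases before the gene.

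Proteasome mRNAs were at similar levels within the complex. Per kb of coding length, the mean of WT no-memory cells at 0 min ranged from 121 CPM per kb for *RPN9* to 352 CPM per kb for *PRE5*, a 2.92-fold range with a median of 219 over the 33 genes. The levels kept to a narrow band in all 12 groups, in which the highest gene was between 2.12 and 2.92 times the lowest and *RPN9*, a scaffold subunit of the lid, was the lowest each time. Per kb, core genes were at higher levels than base and lid genes. The order depends on the division by coding length and does not carry over to plain CPM. In no-memory libraries at 0 min the base gene *RPN1* had a median of 473 CPM. The highest core median was 249 CPM (*PRE2*), and the base gene *RPN13* had 86.1 CPM. In memory samples at 0, 15 and 20 min, the median core level had a midpoint over 6 libraries of 209, 475 and 437 CPM per kb, and the lid had 140.2, 303 and 301 CPM per kb. In no-memory samples the core had 286, 522 and 562 CPM per kb at these times, and the lid had 166, 331 and 346 CPM per kb. By group the core was highest in all 12, and the base lay between core and lid in 9. In the other 3, *mip6Δ* memory at 20 min and *mip6Δ* no memory at 15 and 20 min, the lid was above the base by at most 2.75 CPM per kb. Together the 33 genes took 0.536 to 0.592% of reads in the memory libraries at 0 min and 0.631 to 0.689% in the no-memory libraries, and their share was 1.17 to 1.47% in all heated libraries.

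**Figure D2:**
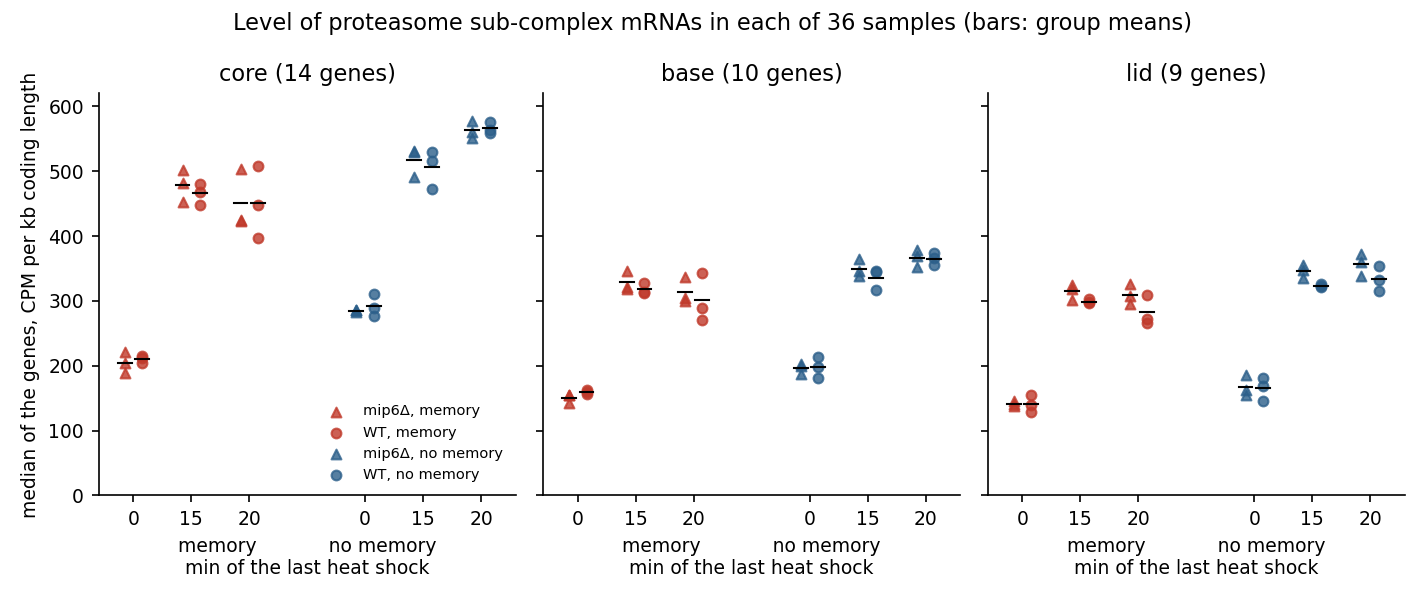
Median level of the core, base and lid genes in each of the 36 samples, in CPM per kb of coding length on a linear axis, against the minutes of the last heat shock, with memory samples left and no-memory samples right. Points are samples (triangles *mip6Δ*, circles WT) and bars are means of 3 replicates. The heated samples lie above all unheated samples in each sub-complex. At 0 min the memory samples lie below all no-memory samples for core and base. The lid samples overlap there, at 129 to 155 with memory and 146 to 186 CPM per kb without.

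All 33 genes rose in heat, in both conditions and at both times. At 20 min against 0 min they rose by a median log2 fold change of 1.05 with memory (range 0.78 to 1.37) and 0.96 without (0.73 to 1.25), which are 2.07-fold and 1.94-fold. At 15 min against 0 min the medians were 1.11 with memory (0.87 to 1.43) and 0.86 without (0.59 to 1.16). All 33 had an adjusted p below 0.05 in each comparison (edgeR's quasi-likelihood test, Benjamini-Hochberg over 6038 genes), the highest being 6.06e-07. Of all genes tested, 35.9% were called higher at 20 min and 37% at 15 min with memory, and 39.8% at 20 min and 40.4% at 15 min without, so a call alone is common in this design. The 6 heated libraries lay above the 6 unheated ones for each of the 33 genes in each of the 4 comparisons, as they did for 25.9 to 30.6% of all genes. The comparisons at 15 and 20 min share their 0 min libraries.

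The genes for the catalytic subunits show the size of the rise. *PRE3* (YJL001W, beta1, the caspase-like site) had 117, 133 and 132 CPM at 0 min in the 3 *mip6Δ* memory replicates, 288, 341 and 322 at 15 min, and 270.4, 325 and 273 at 20 min. In WT memory replicates it had 126, 135 and 137 CPM at 0 min, 286, 330.0 and 318 at 15 min, and 253, 351 and 301 at 20 min. In both strains the heated samples were clear of the unheated ones, and 15 and 20 min overlapped.
Without memory, *PRE3* had 183, 199 and 201 CPM at 0 min in *mip6Δ*, 369, 330.1 and 374 at 15 min, and 376, 379 and 366 at 20 min. In WT no-memory replicates it had 193, 211 and 209 CPM at 0 min, 324, 373 and 381 at 15 min, and 387, 413 and 382 at 20 min. The unheated memory samples were thus all below the unheated no-memory samples. The log2 fold change of *PRE3* at 20 min was 1.18 ± 0.07 (SE) with memory and 0.95 ± 0.07 without (adjusted p = 9.49e-15 and 5.02e-13).

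*PUP1* (YOR157C, beta2, the trypsin-like site) rose less than *PRE3* at 20 min without memory. It had 296, 289.9 and 269 CPM at 20 min in *mip6Δ* no-memory replicates and 300.5, 265 and 309 in WT, against 163, 185 and 173 at 0 min in *mip6Δ* and 176, 158 and 186 in WT. Its log2 fold change was 0.73 ± 0.07, and no 20 min sample reached down to the 0 min samples. *PRE2* (YPR103W, beta5, the chymotrypsin-like site) had 439.6, 409 and 426 CPM at 20 min in *mip6Δ* and 439.9, 458 and 429 in WT, against 251, 242 and 237 at 0 min in *mip6Δ* and 248, 265 and 259 in WT. This was a log2 fold change of 0.79 ± 0.06, so all 3 catalytic genes were between 1.66-fold and 1.93-fold higher at 20 min in cells that had not been heated before.

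In no-memory cells the extremes at 20 min differed by sub-complex. In the core the smallest rise was that of *PRE5* (YMR314W, an alpha ring subunit, alpha6), with 409, 397 and 390.1 CPM at 20 min in *mip6Δ* and 408, 424 and 413 in WT, against 248, 245 and 234 at 0 min in *mip6Δ* and 244, 252 and 249 in WT (log2 fold change 0.73 ± 0.05). The largest was that of *PUP2* (YGR253C, alpha5), with 401, 395 and 367 CPM in *mip6Δ* and 378, 369 and 389.9 in WT, against 169, 173 and 175 at 0 min in *mip6Δ* and 178, 167 and 168 in WT (1.16 ± 0.06). *PRE5* was also the gene with the highest level per kb in each of the 4 groups at 0 min. The groups of both genes were apart.
In the base, *RPN10* (YHR200W, a ubiquitin receptor) had 307, 297 and 292 CPM at 20 min in *mip6Δ* and 290.0, 297 and 292 in WT, against 163, 187 and 175 at 0 min in *mip6Δ* and 169, 179 and 189 in WT (0.74 ± 0.06). *RPT3* (YDR394W, an ATPase of the ring) had 547, 532 and 504 CPM in *mip6Δ* and 516, 566 and 532 in WT, against 259.6, 265 and 245 at 0 min in *mip6Δ* and 252, 284 and 251 in WT (1.04 ± 0.06). The ring ATPase was thus 2.05-fold and the receptor 1.67-fold higher.
In the lid, *RPN3* (YER021W, a scaffold subunit) had 493, 529.6 and 532 CPM at 20 min in *mip6Δ* and 478, 549 and 497 in WT, against 292, 274 and 305 at 0 min in *mip6Δ* and 279.5, 304 and 279.7 in WT (0.83 ± 0.05). *RPN7* (YPR108W, another scaffold subunit) had 428, 454 and 408 CPM in *mip6Δ* and 426, 438 and 389 in WT, against 191, 165 and 177 at 0 min in *mip6Δ* and 182, 196 and 159.6 in WT (1.25 ± 0.06). Its rise of 2.38-fold was the largest of the 33 at this time without memory.

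By sub-complex, the median log2 fold changes at 20 min were 1.11 for the core, 0.98 for the base and 1.09 for the lid with memory, and 0.92, 0.88 and 1.05 without. At 15 min they were 1.17, 1.04 and 1.18 with memory and 0.81, 0.80 and 1.03 without. The median over all genes tested is close to 0 under this scaling, and the median of the members exceeded it by 0.84 to 1.11 in the 4 comparisons. The subunits of a sub-complex are not replicates, so no test was made between sub-complexes. The 27 genes with PACE had a median log2 fold change of 0.96 at 20 min without memory (0.75 to 1.25), and the 6 without it had 0.81 (0.73 to 1.18), so both sets rose and their ranges overlapped.

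**Figure D3:**
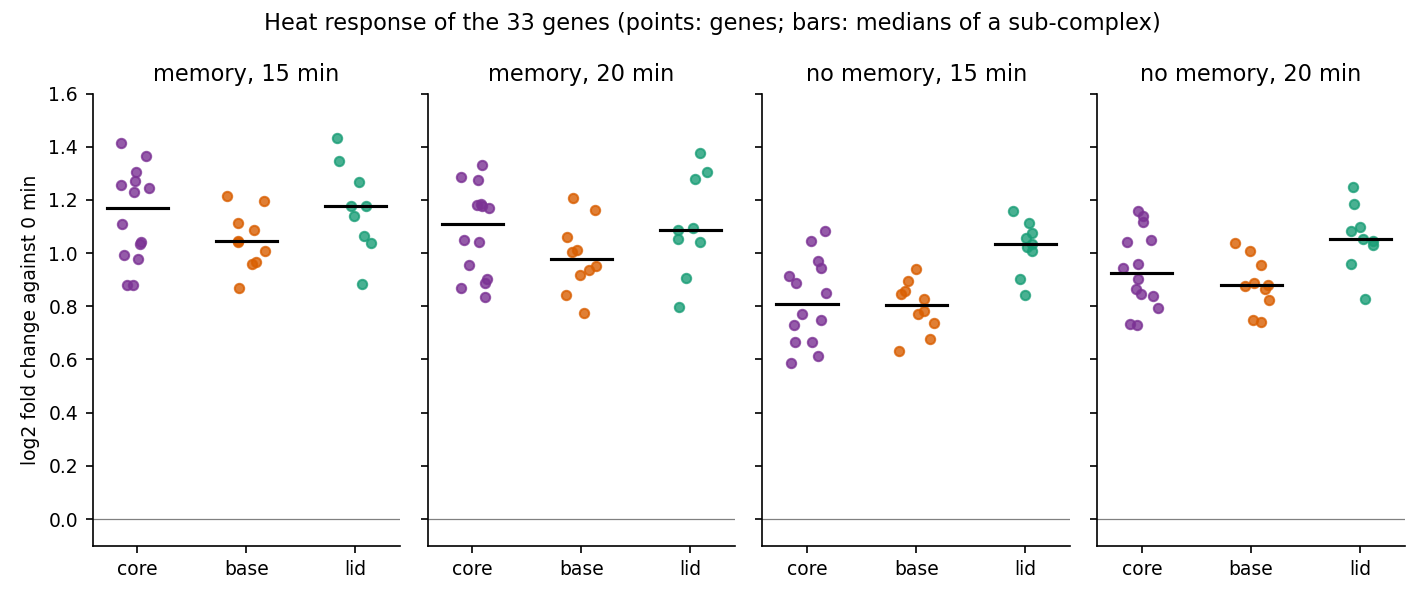
Log2 fold change of each of the 33 genes in heat against 0 min of the same condition, in 4 panels (memory and no memory, 15 and 20 min). Points are genes and bars the medians of core, base and lid, and every point lies above 0, from 0.59 to 1.43.

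Between 15 and 20 min the differences were small. With memory, 0 of 33 genes passed the test in either direction by edgeR, against 4.8% of all genes higher and 4.07% lower, and 2 members had an unadjusted p under 0.05, while DESeq2 called 1, limma 3 and a fit with the replicate block within each strain 2, all lower. The median was -0.07. Without memory the median was 0.10, and 1 gene was called higher, *PRE9* (YGR135W, alpha3, log2 fold change 0.18 ± 0.06, adjusted p = 0.048), against 6.82% of all genes. That call was lost when any 1 of 26 of the 36 libraries was left out. The other fits called more genes higher, with 4 by DESeq2, 9 by limma, 6 with the replicate block (also within each strain) and 18 by total reads.

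Memory cells had lower proteasome mRNA levels at each time relative to the bulk of genes. At 0 min, after the first heat shock and the recovery, 29 of 33 genes were lower in memory than in no-memory cells and 0 were higher, with a median log2 difference of -0.40 (range -0.61 to -0.16), and 17.9% of all genes were called lower. At 15 min the median was -0.12 and 12 genes were lower, against 27% of all genes, a share of the members not far above that background. At 20 min the median was -0.27 (-0.45 to -0.01) and 30 genes were lower, against 30.5% of all genes. The 6 memory libraries lay below the 6 no-memory libraries for 27 genes at 0 min, 5 at 15 min and 18 at 20 min, as they did for 7.14%, 15.9% and 17.8% of all genes.
The 4 genes without a call at 0 min were *SEM1*, *RPN9*, *RPN13* and *RPN5*, of which 3 belong to the lid. Scaled by total reads, 24 genes were lower at 0 min and 11 at 20 min, while at 15 min 0 were lower and 12 higher, so the direction at 15 min holds only relative to the bulk of genes. Leaving out all libraries of 1 replicate number gave 4 to 15 genes lower at 15 min, and the replicate block within each strain gave 19.

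At 0 min the lowest member was *PRE3*, whose values were given above, with a log2 difference of -0.61 ± 0.07 (adjusted p = 1.77e-07), or 1.53-fold lower in memory cells. At 20 min the lowest in the core was *PRE4* (YFR050C, beta7), with 311, 383 and 344 CPM in *mip6Δ* memory replicates and 316, 409 and 355 in WT memory replicates, against 470.1, 458 and 473 in *mip6Δ* no-memory and 475, 526 and 496 in WT no-memory replicates (-0.45 ± 0.07). All 6 memory samples were below all 6 no-memory samples. The core gene with the smallest difference was *PRE7* (YBL041W, beta6), with 338, 379.6 and 302 CPM in *mip6Δ* memory and 312, 368 and 331 in WT memory, against 399, 376 and 362 in *mip6Δ* no-memory and 383, 391 and 374 in WT no-memory replicates (-0.17 ± 0.05). Here the groups overlapped, as memory replicate 2 of each strain reached the no-memory range.
In the base, *RPT3* had 383, 459.8 and 396 CPM in *mip6Δ* memory and 359, 462 and 384 in WT memory, against the 504 to 566 CPM of the no-memory replicates given above (-0.39 ± 0.06, groups apart). *RPT4* (YOR259C, another ATPase of the same ring) had 435, 473 and 421 CPM in *mip6Δ* memory and 391, 484 and 404 in WT memory, against 484, 469 and 450.5 in *mip6Δ* no-memory and 491, 472 and 457 in WT no-memory replicates (-0.11 ± 0.05, adjusted p = 0.068). *RPT4* was the base gene without a call at 20 min, and its groups overlapped.
In the lid, *RPN11* (YFR004W, the deubiquitinase) had 237, 276 and 250.5 CPM in *mip6Δ* memory and 219, 255 and 234 in WT memory, against 332, 335 and 328 in *mip6Δ* no-memory and 304, 333 and 326 in WT no-memory replicates (-0.41 ± 0.05, adjusted p = 5.39e-08). *SEM1* (YDR363W-A, the small subunit that helps hold the lid together) had 108, 120.4 and 97.2 CPM in *mip6Δ* memory and 83.2, 99.2 and 73.6 in WT memory, against 122, 117 and 74.8 in *mip6Δ* no-memory and 102, 90.8 and 75.4 in WT no-memory replicates (-0.01 ± 0.15). *RPN11* separated fully, and *SEM1* overlapped fully. Its standard error was the largest of the 33 genes, so a difference of the size seen for the median member could not be told from its spread.

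**Figure D4:**
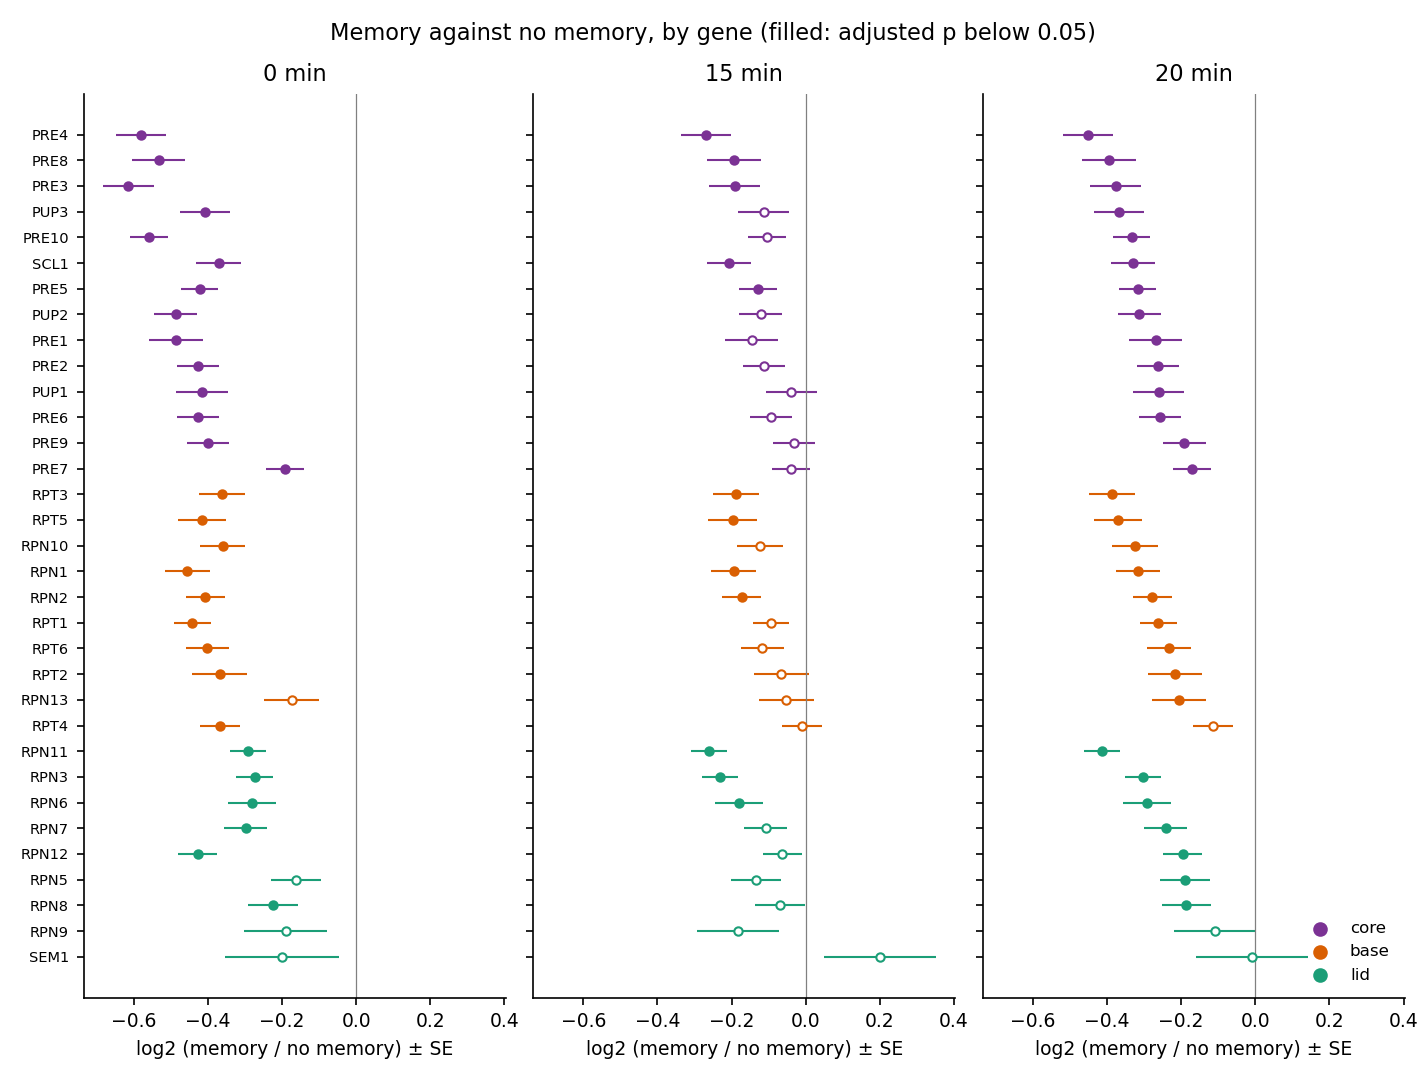
Log2 difference of memory against no memory at 0, 15 and 20 min for each gene, with bars of 1 SE from the edgeR fit. Genes are grouped by sub-complex and ordered by the 20 min value, filled points have an adjusted p below 0.05, and all points but that of *SEM1* at 15 min lie below 0.

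The heat response itself was larger with memory in part of the genes, mainly at 15 min. The difference between the memory and the no-memory response had a median of 0.29 on the log2 scale at 15 min, and it passed the test as higher in 20 of 33 genes, against 18.4% of all genes. These were 12 of the 14 core genes (median 0.34), 7 of the 10 base genes (0.25) and 1 of the 9 lid genes (0.10). The largest was *PRE10* (YOR362C, alpha7, 0.45 ± 0.07, adjusted p = 2.41e-05), and the smallest was *RPN9* (0.01 ± 0.16). The lid gene was *RPN12* (YFR052W, 0.36 ± 0.07, adjusted p = 0.00057), and this was also the lid gene with the largest deficit at 0 min (-0.43 ± 0.05). The lid gene *SEM1* had a larger difference in response (0.40) and did not pass the test. At 20 min the median was 0.13, and 5 genes passed, *RPT4*, *PRE10*, *RPN12*, *PRE9* and *RPT1*, against 18% of all genes. The share of the members at 20 min was thus not above that background.
The counts depend on the samples at hand. At 15 min 8, 9 and 18 genes passed when replicates 2, 3 and 1 were left out, and at 20 min 0, 1 and 5. The 20 min count was 15 by limma and 9 by total reads. The response with memory starts from the lower 0 min level, which enters both quantities, so they share libraries and are not separate evidence.

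The balance between sub-complexes was also computed in each sample. The mean log2 level of the lid minus that of the core, per kb, was between -0.74 and -0.49 in the 6 memory samples at 0 min, and between -0.95 and -0.68 in the 6 no-memory samples. These ranges overlap, but set beside the no-memory sample of the same strain and number, the memory sample was higher in 6 of 6 pairs, by 0.13 to 0.24. At 20 min it was -0.68 to -0.47 with memory and -0.81 to -0.55 without, and higher with memory in 4 of 6 pairs. For the base minus the core the values at 0 min were -0.51 to -0.43 with memory and -0.63 to -0.52 without. These do not overlap but nearly touch, at -0.509 and -0.516. At 20 min they were -0.63 to -0.50 and -0.63 to -0.57. At 15 min the lid minus the core was higher with memory in 4 of 6 pairs (shifts of -0.17 to 0.14). The base minus the core was higher in 5 of 6 pairs at that time (-0.07 to 0.05).

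The deletion of *MIP6* was not followed by a difference in these genes that passed the test. Averaged over the 6 pairs of groups, 0 of 33 genes were called between *mip6Δ* and WT by edgeR, against 0.348% of all genes higher and 0.812% lower, and 2 had an unadjusted p under 0.05. DESeq2 called 0, and limma on the authors' normalized counts called 2 higher, as did edgeR with the replicate block. The log2 differences ranged from -0.06 for *PRE4* to 0.20 ± 0.09 for *SEM1* (adjusted p = 0.27). The 95% intervals of the 33 genes lay between -0.14 and 0.38, with an upper bound of 0.24 once *SEM1* is set aside. The fit counted all libraries of a strain as independent. Those of the same strain, condition and number correlated in their deviations at a median r of 0.44, so these intervals may be too narrow. The strain effect on the 20 min heat response and the strain effect on memory at 20 min were each called in 0 members and in 0% of all genes in either direction, with 0 members at an unadjusted p under 0.05 and 0 called by DESeq2 or limma. In *mip6Δ* and in WT the median heat response at 20 min was 1.06 and 1.03 with memory and 0.96 and 0.96 without, and the median difference of memory from no memory at 20 min was -0.26 and -0.29.

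In heat, the transcript of the activator did not rise with those of the proteasome genes. At 20 min it was lower with memory, as most of theirs were. *RPN4* (YDL020C) had 104, 114 and 87.2 CPM at 20 min in *mip6Δ* memory replicates and 86.2, 103 and 92.0 in WT, against 288, 245 and 138 at 0 min in *mip6Δ* and 459, 228 and 150.4 in WT. In no-memory replicates it had 402, 292 and 209 CPM at 20 min in *mip6Δ* and 226, 253 and 219 in WT, against 563, 371 and 348 at 0 min in *mip6Δ* and 558, 392 and 391 in WT. The replicates at 0 min spread widely, and replicate 1 was the highest in each group.
*RPN4* fell by 1.36 ± 0.23 on the log2 scale at 20 min with memory and by 0.72 ± 0.23 without (adjusted p = 6.64e-06 and 0.0051). At 15 min it fell by 0.95 ± 0.23 with memory (adjusted p = 0.0005), and without memory the difference of -0.31 ± 0.23 did not pass the test (adjusted p = 0.20). It was lower in memory than in no-memory cells at 20 min, by a log2 difference of -1.44 ± 0.23 (2.71-fold, adjusted p = 5.93e-06), and the groups did not overlap. Over the 36 samples its log2 CPM had a Pearson r of -0.233 with the mean log2 CPM of the 33 genes, and r was 0.980 for *UMP1* (YBR173C), the maturation factor of the core. Samples of 1 group share their treatment, so r is a description. *UMP1* had 143, 176 and 158 CPM at 20 min in *mip6Δ* memory replicates and 143, 174 and 149 in WT, against 186, 179 and 186 in *mip6Δ* no-memory and 199.8, 196 and 199.6 in WT no-memory replicates (-0.28 ± 0.06). Every memory sample was below every no-memory sample.

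Of 16 genes for regulators and assembly factors of the proteasome, 13 rose in each of the 4 heat comparisons, against 35.9 to 40.4% of all genes. The largest rise at 20 min without memory was that of *TMA17*, an assembly chaperone of the base (2.79 ± 0.15), and *POC4* (YPL144W), an assembly chaperone of the alpha ring, fell the most (-1.23 ± 0.11). With memory, 7 of the 16 were lower and 0 higher at 0 min, 8 lower and 2 higher at 15 min, and 14 lower and 1, *POC4*, higher at 20 min. Among all 6038 genes tested, 1079 were lower and 901 higher at 0 min, 1628 and 1750 at 15 min, and 1839 and 1800 at 20 min. *POC4* had 20.3, 19.0 and 15.6 CPM at 20 min in *mip6Δ* memory and 17.9, 18.2 and 18.4 in WT memory, against 10.0, 8.43 and 10.8 in *mip6Δ* no-memory and 12.7, 8.67 and 10.4 in WT no-memory replicates (0.85 ± 0.11). Its fall in heat with memory passed the test at 15 min (-0.29 ± 0.10, adjusted p = 0.013) and not at 20 min (-0.22 ± 0.10, adjusted p = 0.062), and the memory effect on its 20 min response did (1.01 ± 0.15, adjusted p = 1.05e-05). *IRC25*, whose product pairs with Poc4, was not called at 20 min in either condition (0.09 ± 0.09 with memory and -0.09 ± 0.09 without). Over the 16 genes, the memory effect on the heat response was called higher in 2 and lower in 4 at 15 min, and likewise at 20 min. Of the 6038 genes tested, 1111 were higher and 661 lower at 15 min, and 1086 and 827 at 20 min.
All 8 genes for ubiquitin, its shuttling receptors and the Cdc48 segregase rose in each heat comparison. With memory, 8, 5 and 8 of them were lower at 0, 15 and 20 min, against 17.9%, 27% and 30.5% of all genes. The largest rise at 20 min without memory was that of *UBI4* (3.14 ± 0.16), the polyubiquitin gene, whose repeats resemble other ubiquitin genes so that reads may have been split, and the smallest was that of *RAD23*, a shuttling receptor (0.55 ± 0.06). PACE was in the windows of 1 of the 16 and 2 of the 8 genes.

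**Figure D5:**
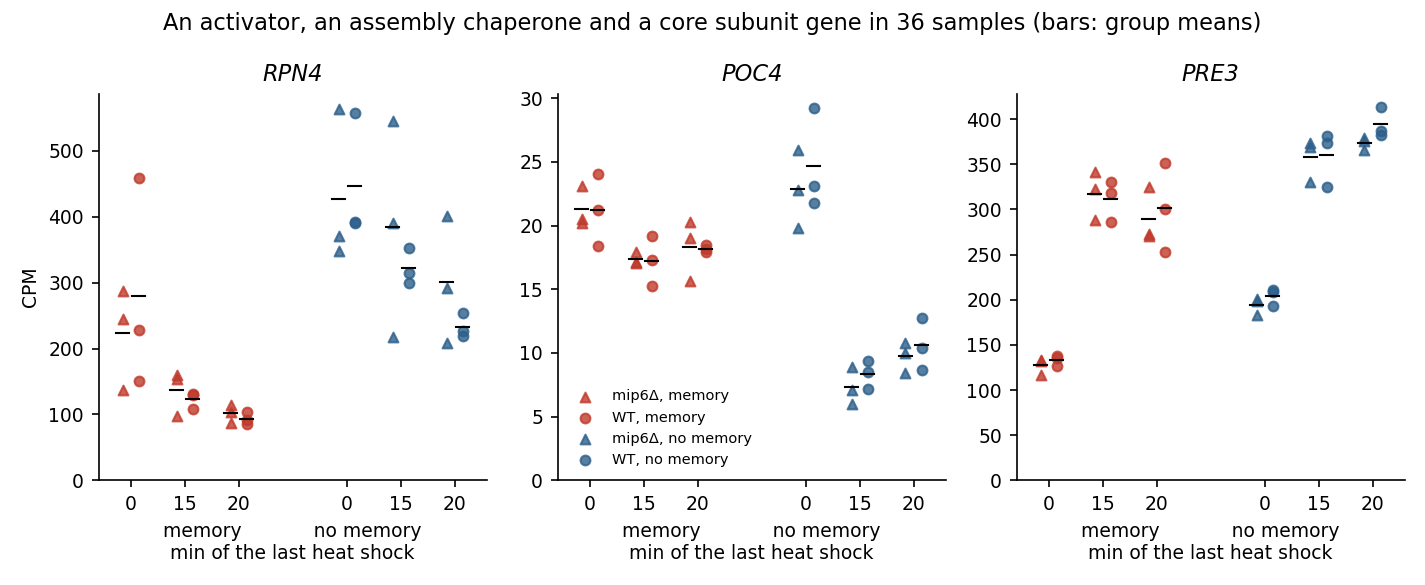
CPM of *RPN4*, *POC4* and *PRE3* in each of the 36 samples, with memory samples left and no-memory samples right, on linear axes from 0. Points are samples (triangles *mip6Δ*, circles WT), bars are means of 3 replicates. *PRE3* is higher in all heated samples, the means of *RPN4* are lower at 20 min than at 0 min in both conditions, and the fall of *POC4* in heat is larger without memory.

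The levels of the 33 genes were also set against each other over the samples. The Pearson r of a gene's log2 CPM with the mean of the other 32 over the 36 samples was lowest for *SEM1* (0.891) and *RPN9* (0.904), both of the lid, and highest for *RPT1* (0.996). Outside the complex, the 5 genes with the highest r to the mean of the members were *PHB2* (prohibitin of the mitochondrial inner membrane, 0.995), *PIM1* (the mitochondrial Lon protease, 0.994), *ALG13* (a subunit of an enzyme of N-glycosylation, 0.993), *UFD1* (a partner of Cdc48, 0.993) and *UBX4* (a UBX-domain protein that binds Cdc48, 0.992). After the mean of each group was taken off, r was 0.706 (*PIM1*) to 0.844 (*PHB2*) for these 5 genes, 0.907 for *RPT1*, 0.246 for *SEM1* and -0.447 for *RPN9*, while it was 0.260 for *RPN4* and 0.658 for *UMP1*. Replicates of *RPN9* thus did not follow those of the other members.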

How the data were processed

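The authors prepared stranded mRNA libraries, and per the labels they checked reads with FastQC, trimmed them with Trimmomatic, mapped them to sacCer3 with HISAT2 and used StringTie (versions not given in the sources used here). The deposited count table holds whole read counts of 6403 genes, not normalized. The authors' second table holds a signal of 6172 genes, read counts normalized by TMM, filtered on low values and cleared of hidden batch effects by ARSyN. Whether ARSyN was given the groups is not stated, so the spread in that table may be too narrow. Counts were the main source, and the second table served an alternative.

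Counts of 36 libraries were fitted with edgeR 4.0.16 (R 4.3.3) in 1 model of 12 groups with 24 residual degrees of freedom, TMM scaling and filterByExpr (minimum count 10), and each comparison was the mean over both strains. The quasi-likelihood F test was adjusted by Benjamini-Hochberg over 6038 genes at a threshold of 0.05. The SE is the log2 fold change divided by the root of F. The lowest library total was 28270651 reads and the lowest count of a member 775, which sets the counting precision. Alternatives were RLE and total-count scaling, no filter, DESeq2 1.42.0, limma 3.58.1 on log2(normalized count + 1) and + 10, a replicate block, a replicate block within each strain (added after the data were seen), and leaving out each replicate number and each library. The fit was also run on simulated counts with known changes. Those changes were larger than the median memory differences above, and the libraries were drawn independently. The run therefore does not show how the fit handles such differences.

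Levels per kb used RefSeq coding lengths. Genes followed by sample were the 3 catalytic genes and, in each sub-complex, the highest and lowest member for memory against no memory at 20 min and for heat at 20 min without memory. Members, lists and rules were chosen with earlier results of these data known. The marker genes *LEU2*, *MET15* and *URA3*, deleted in both strains, were not analysed here.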

Additional observations from a re-analysis of the deposited data

Results flagged for a closer look

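The heat response differed between memory and no-memory cultures by a test of the difference itself in 20 of the 33 proteasome genes at 15 min and in 5 at 20 min, all with the larger response in memory cultures. Of all genes tested, 18.4% were called higher at 15 min and 18% at 20 min. The share of the members at 20 min was thus not above that of all genes. The 20 genes were 12 of the core, 7 of the base and 1 of the lid. A strain effect on the 20 min heat response was called in 0 genes, and one on the 15 min response was not tested. Groups of 3 replicates were not searched for single samples that stand apart.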

How the results depend on the processing

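The heat responses held in all 33 genes under every alternative run. The number of genes lower with memory at 0 min was within a factor of 1.5 of the main count throughout. Under total-count scaling 11 genes were lower with memory at 20 min, and at 15 min 0 were lower and 12 higher, since that scaling moves the median of all genes. The medians of core, base and lid then were 1.06, 1.01 and 1.19 at 20 min without memory, 1.29, 1.17 and 1.30 at 15 min and 1.27, 1.14 and 1.25 at 20 min with memory. For memory against no memory they were -0.25, -0.21 and -0.10 at 0 min, 0.12, 0.12 and 0.10 at 15 min, where the direction turned, and -0.11, -0.068 and 0.0055 at 20 min, where it turned for the lid. At 15 min DESeq2 called 21 genes lower with memory and limma (pseudocount 1 or 10) called 1 higher. For the memory effect on the 20 min response, total-count scaling gave 9 genes and limma 15 with either pseudocount.

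Between 15 and 20 min without memory, the 1 call became 0 with RLE or without a filter, 18 by total counts, 4 with DESeq2, 9 with limma at either pseudocount and 6 with the replicate block. With memory, DESeq2 called 1 gene lower, limma 3 at either pseudocount and the replicate block 1. For *mip6Δ* against WT, limma at either pseudocount and the replicate block each called 2 genes higher. The causes were not tested. The replicate block changed no other count by over 1.5 times. A culture was divided into both flasks, but the sources do not state that the number marks it. Memory and no-memory libraries of the same strain, number and time correlated in their deviations above 0.1 in 17 of 18 pairs (lowest -0.07), and 33 of 36 samples correlated best with their own number. A replicate block within each strain, added after the data were seen, gave 6 genes higher between 15 and 20 min without memory, 2 lower with memory, and 19 lower with memory at 15 min, and moved no other count by over 1.5 times. It cannot be used for *mip6Δ* against WT.

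Leaving out replicates gave 0 to 4 genes higher between 15 and 20 min without memory and 0 to 2 lower with memory. It gave 4 to 15 genes lower with memory at 15 min. The memory effect on the response ranged over 8 to 21 genes at 15 min and 0 to 9 at 20 min. At 20 min it was 9 without WT memory 20 min replicate 1. It was 3 without any 1 of 21 libraries, namely all 3 of WT memory 0 and 15 min and of *mip6Δ* memory 15 min, replicate 1 of *mip6Δ* memory 0 min, replicate 2 of memory 20 min in both strains, replicates 1 and 2 of WT no memory 0 min, replicate 2 of WT no memory 15 min, and replicates 2 and 3 of *mip6Δ* no memory 0 min and of no memory 20 min in both strains. Between 15 and 20 min without memory the count stayed at 1 gene without replicate 1 of *mip6Δ* memory 0 min, WT memory 0 min or *mip6Δ* no memory 0 min, replicates 2 or 3 of *mip6Δ* memory 20 min, or replicate 3 of WT no memory 0 or 15 min. CPM are shares of the reads, so the amount of mRNA per cell was not measured.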
